A study of Mus musculus with 32 samples.

Results

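Glycolysis and the response to low oxygen were followed here through 34 genes: 23 that carry or regulate glycolysis and 11 that belong to the pathway of hypoxia-inducible factor (HIF). They were chosen by gene symbol as glycolytic enzymes, their regulators and HIF pathway genes, with earlier results of these data known. They occupied 35 of the 36595 rows of the count table, because Aldoa has 2 rows, and the 35 rows all passed the filter on low counts that left 16428 rows for testing. The second Aldoa row (ENSMUSG00000114515) stood between 0 and 0.761 CPM (counts relative to the library total, scaled between libraries by TMM), passed no test, and is left out of the counts of genes.

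The series measured RNA in cultured mouse islets in 4 groups of 8 libraries, namely hIAPP and mIAPP cultures in 16.7 mM glucose, and hIAPP and mIAPP cultures in 11.1 mM glucose. In hIAPP mice the human gene for islet amyloid polypeptide replaced the mouse Iapp locus by homologous recombination, so that the insert stood at the native locus; mIAPP mice were wild-type littermates with mouse Iapp, and all animals were on a C57BL/6NHsd background. Islets came from 10-week-old males and females, spent a night in medium with 11.1 mM glucose, and were then kept for 48 h at 16.7 or 11.1 mM. Each of 8 experiment sets held 1 library of each group, and the number of animals behind a set is not stated. The main test compares groups within sets, so its p-values measure how the group differences varied from set to set.

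Glycolysis turns glucose into pyruvate, and its flux is set mainly at glucose uptake, at hexokinase and at phosphofructokinase. In beta cells glucose is normally phosphorylated by glucokinase, and the pyruvate is burnt in mitochondria, which couples glucose to insulin secretion, while lactate production is kept low. HIF is a transcription factor whose alpha subunit is marked for destruction by oxygen-dependent prolyl hydroxylases (the Egln genes); when oxygen is short it accumulates, pairs with its partner Arnt and switches on glucose transporters, glycolytic enzymes and genes of mitochondrial turnover and vessel growth.

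Total counts were 16.1 to 43.7 M per library. The row of Iapp, the replaced gene, stood at 9764 to 11583 CPM in hIAPP and 16864 to 30408 CPM in mIAPP islets at 16.7 mM, and at 5647 to 7912 CPM in hIAPP and 8645 to 15613 CPM in mIAPP islets at 11.1 mM, with no overlap at either glucose level; how reads of the human insert were handled is not given in the sources used here. The share of counts from mitochondrially encoded genes differed between groups, with medians at 16.7 mM of 3.5% for hIAPP and 7.29% for mIAPP islets, and at 11.1 mM of 18.1% for hIAPP and 20.4% for mIAPP islets. Under 10% mitochondrial counts stood 8 hIAPP and 5 mIAPP libraries at 16.7 mM. At 11.1 mM only 2 hIAPP and 3 mIAPP libraries did, so fits under 10% compare unequal groups. One library stood apart, that of mIAPP islets at 16.7 mM in set 7, with 37% mitochondrial counts, against 13.4% in the next of its group. Where dropping this library, or the mitochondrial share, ended a call on one of the 34 genes, this is said beside the gene or in the paragraph on that comparison. Among cell type markers at 16.7 mM, 7 of 10 beta cell and 7 of 10 endothelial genes were lower in hIAPP islets, against 11.2% of all rows tested. The beta cell list includes Iapp, the replaced gene, which was itself among the 7. The endothelial genes summed to 22 to 64.6 CPM in hIAPP and 44.1 to 151 CPM in mIAPP islets, and none of either list was at 0. The ductal genes, of which 1 was called higher, summed to a median of 922 CPM in hIAPP and 629 CPM in mIAPP islets. The 4 neutrophil genes summed to 1.16 to 30.7 CPM in hIAPP islets, with Ly6g at 0, and to at most 0.0443 CPM in mIAPP islets, with Ly6g and S100a9 at 0. The part of these markers and of the mitochondrial share in the results below was not tested. In whole islets, fewer cells of a type and less RNA per cell cannot be told apart.

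In hIAPP islets at 16.7 mM glucose 6 glycolysis genes were higher: the glucose transporter Slc2a1, the hexokinase Hk2, the phosphofructokinase Pfkp and Pfkfb3, which makes the activator of phosphofructokinase, were 1.8- to 2.10-fold higher than in mIAPP islets at 16.7 mM. Pgk1 was 1.44-fold and Aldoa 1.26-fold higher, and the lactate dehydrogenase subunit Ldhb was 1.44-fold lower. In all, 6 of the 23 glycolysis genes were higher and 1 was lower (edgeR quasi-likelihood test, Benjamini-Hochberg adjusted p below 0.05), where 20.5% of all rows tested were called, 9.27% higher and 11.2% lower. The median log2 fold change of the 23 genes was 0.23, against -0.01 for all rows, and 20 of them had a positive value. At 11.1 mM none of the 23 passed (5 at an unadjusted p below 0.05, and 0 also by limma voom and DESeq2), where 0.128% of all rows were called (0.11% higher and 0.0183% lower), and their median was 0.07. Of all 16428 rows, 1121 had an unadjusted edgeR p below 0.05 at 11.1 mM.

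Slc2a1 (ENSMUSG00000028645, chr4:119108711-119137983 on GRCm38) encodes the glucose transporter GLUT1, a classical HIF target. It stood at 30.1, 44.6 and 62.2 CPM (lowest, median and highest library) in hIAPP islets at 16.7 mM, against 19.3, 20.7 and 23.5 CPM in mIAPP islets at 16.7 mM. At 11.1 mM the lowest, median and highest were 11.7, 15.4 and 20.0 CPM in hIAPP islets and 4.77, 13.9 and 20.4 CPM in mIAPP islets. At 16.7 mM the lowest hIAPP library thus lay above the highest mIAPP library, whereas at 11.1 mM the genotypes overlapped almost fully. The log2 fold change between genotypes was 1.07 ± 0.19 (SE; adjusted p = 0.000233) at 16.7 mM and 0.17 ± 0.19 (adjusted p = 0.853) at 11.1 mM. Groups that do not overlap, with hIAPP higher, made up 2.39% of all rows tested at 16.7 mM, and among the 23 genes they were Slc2a1 and Aldoa; with hIAPP lower they made up 0.584% and 0 of the 23. At 11.1 mM the shares were 0.0791% higher and 0.0122% lower, and 0 of the 34 genes.

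Hk2 (ENSMUSG00000000628, chr6:82725025-82774454), a hexokinase that works at low glucose and is scarce in healthy beta cells, was the least abundant of the genes that passed. Its levels were 1.06, 3.61 and 4.57 CPM in hIAPP islets at 16.7 mM, against 0.75, 1.74 and 3.35 CPM in mIAPP islets at 16.7 mM. At 11.1 mM they were 1.63, 2.64 and 3.35 CPM in hIAPP and 1.00, 1.68 and 2.79 CPM in mIAPP islets. The groups overlapped at both glucose levels, and the highest mIAPP library at 16.7 mM was that of set 7, whose next neighbour stood at 1.86 CPM. For Hk2 the log2 fold change at 16.7 mM was 0.85 ± 0.21 (adjusted p = 0.00683), with hIAPP higher in 6 of 8 sets. At 11.1 mM it was 0.49 ± 0.21 (adjusted p = 0.722), with hIAPP higher in 8 of 8 sets. Hk1, the other hexokinase of the list, had log2 fold changes of 0.15 ± 0.16 at 16.7 mM and -0.02 ± 0.16 at 11.1 mM and did not pass. Per kilobase of the longest transcript, Hk2 held 29.2% ± 6.58 of the joint Hk1 and Hk2 level in hIAPP islets and 19.8% ± 4.92 in mIAPP islets at 16.7 mM (SD, n = 8), and the ranges overlapped.

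Phosphofructokinase commits sugar phosphate to glycolysis, and its 3 subunit genes did not move together. Pfkp (ENSMUSG00000021196, chr13:6579768-6648777), the platelet-type subunit, stood at 50.1, 75.7 and 112 CPM in hIAPP islets at 16.7 mM, against 28.2, 35.2 and 61.1 CPM in mIAPP islets at 16.7 mM. At 11.1 mM it stood at 18.1, 29.1 and 36.2 CPM in hIAPP and 19.5, 24.0 and 31.3 CPM in mIAPP islets. At 16.7 mM the overlap came from the mIAPP library of set 7, which held the 61.1 CPM and lay above 4 hIAPP libraries; the next mIAPP library was at 44.9 CPM, below every hIAPP library. Pfkp had the smallest adjusted p of the 34 genes in this comparison, with a log2 fold change of 1.05 ± 0.14 (adjusted p = 9.16e-06) at 16.7 mM, and 0.20 ± 0.14 (adjusted p = 0.77) at 11.1 mM. The liver-type Pfkl (0.13 ± 0.14) and the muscle-type Pfkm (0.05 ± 0.10) did not pass at 16.7 mM. Per kilobase, Pfkp supplied 29.1% ± 4.34 of the summed level of the 3 genes in hIAPP islets at 16.7 mM (range 23.3 to 34.3%) and 17.4% ± 2.6 in mIAPP islets at 16.7 mM (range 15.0 to 23.1%). Its share was 15.4% ± 2.16 in hIAPP islets and 14.0% ± 3.71 in mIAPP islets at 11.1 mM. The final 748 bases of Pfkp overlap the end of Pitrm1 on the other strand (chr13:6579768-6580515), and Pitrm1 itself was higher at 16.7 mM by a log2 fold change of 0.21 ± 0.05 (adjusted p = 0.00718); whether counting used strand is not stated.

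The PFKFB enzymes make and remove the form of fructose bisphosphate that activates phosphofructokinase, and only Pfkfb3 of the 4 passed at 16.7 mM. Pfkfb3 (ENSMUSG00000026773, chr2:11471433-11554077) stood at 15.1, 23.9 and 28.1 CPM in hIAPP islets at 16.7 mM, against 7.6, 9.99 and 17.7 CPM in mIAPP islets at 16.7 mM. In 11.1 mM glucose its levels were 7.29, 9.36 and 11.7 CPM in hIAPP and 3.9, 6.49 and 10.3 CPM in mIAPP islets. Set 7 again held the highest mIAPP library at 16.7 mM, and the second highest, at 11.7 CPM, lay below the hIAPP range. The log2 fold change was 1.01 ± 0.16 (adjusted p = 7.39e-05) at 16.7 mM and 0.47 ± 0.16 (adjusted p = 0.722) at 11.1 mM. The other genes had log2 fold changes of 0.29 ± 0.24 (Pfkfb1), 0.04 ± 0.19 (Pfkfb2) and -0.13 ± 0.12 (Pfkfb4) at 16.7 mM. Pfkfb2 was the most abundant of the 4 per kilobase, at 74.1% ± 5.43 of their sum in hIAPP islets and 79.6% ± 11.2 in mIAPP islets at 16.7 mM; it overlaps the same-strand gene model Gm29427, so its reads may be split.

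**Figure D1:**
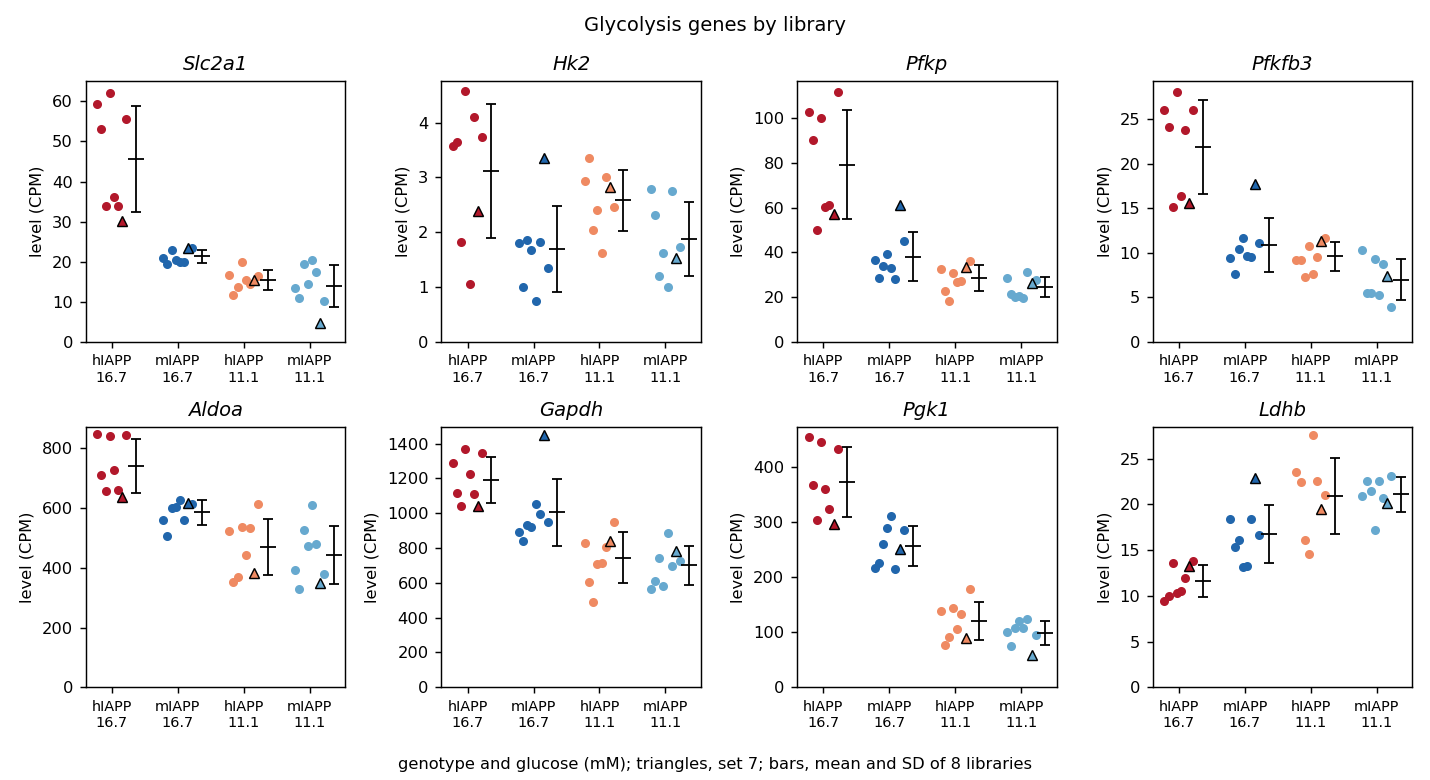
Levels of 8 glycolysis genes in CPM (linear vertical axes from 0) in each of the 32 libraries, by genotype and glucose; triangles are set 7 and bars give the mean and SD of 8 libraries. At 16.7 mM Slc2a1 spans 30.1 to 62.2 CPM in hIAPP and 19.3 to 23.5 CPM in mIAPP islets, and the mIAPP library of set 7 is the highest of its group for Hk2, Pfkp, Pfkfb3, Gapdh and Ldhb.

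Of the enzymes that split the sugar and harvest ATP, Aldoa and Pgk1 passed at 16.7 mM. Aldoa (ENSMUSG00000030695, chr7:126795234-126800751), an aldolase, stood at 636, 719 and 847 CPM in hIAPP islets at 16.7 mM, against 505, 602 and 628 CPM in mIAPP islets at 16.7 mM, so the groups did not overlap. The 11.1 mM cultures held 352, 483 and 612 CPM in hIAPP and 329, 433 and 609 CPM in mIAPP islets, which overlapped. Its log2 fold change was 0.33 ± 0.11 (adjusted p = 0.0293) at 16.7 mM and 0.08 ± 0.11 (adjusted p = 0.876) at 11.1 mM. The call at 16.7 mM was lost without set 1, 2 or 6 (adjusted p of 0.107, 0.0789 and 0.0578) without the replicate block (0.0728), with the mitochondrial covariate (0.364) and under 10% mitochondrial counts (0.0633).

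Pgk1 (ENSMUSG00000062070, chrX:106187100-106203699), phosphoglycerate kinase, makes the first ATP of the pathway and is a textbook HIF target. It stood at 296, 362 and 453 CPM in hIAPP islets at 16.7 mM, against 214, 254 and 311 CPM in mIAPP islets at 16.7 mM. At 11.1 mM the values were 77.1, 119 and 179 CPM in hIAPP and 58.2, 103 and 123 CPM in mIAPP islets. The genotypes overlapped at both glucose levels, but hIAPP was higher within 8 of 8 sets at 16.7 mM. As a log2 fold change the genotype difference was 0.53 ± 0.12 (adjusted p = 0.00427) at 16.7 mM and 0.27 ± 0.12 (adjusted p = 0.722) at 11.1 mM.

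Gapdh (ENSMUSG00000057666, chr6:125161715-125166467), often used as a constant reference in islet work, stood at 1042, 1171 and 1366 CPM in hIAPP islets at 16.7 mM, against 840, 940 and 1450 CPM in mIAPP islets at 16.7 mM. Cultures at 11.1 mM stood at 489, 761 and 949 CPM in hIAPP and 563, 711 and 889 CPM in mIAPP islets. The 1450 CPM belonged to set 7, and the next mIAPP library, at 1054 CPM, lay just inside the hIAPP range. The log2 fold change at 16.7 mM, 0.26 ± 0.11, did not pass with all libraries (adjusted p = 0.0922) and passed without the mIAPP library of set 7 (0.33 ± 0.11, adjusted p = 0.0417). Its 77 near-identical copies in the table held 2.78 to 8.78% of the joint level, so part of its reads may be split.

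The other enzymes of the lower pathway did not pass at 16.7 mM: their log2 fold changes were 0.28 ± 0.15 for Eno1 and -0.04 ± 0.10 for Eno2 (enolases), 0.23 ± 0.13 for Tpi1 (triose phosphate isomerase) and 0.17 ± 0.08 for Pgam1 (phosphoglycerate mutase). Pkm (pyruvate kinase), Gpi1 (glucose phosphate isomerase) and Aldoc (a brain-type aldolase) had values of 0.03 ± 0.09, 0.04 ± 0.11 and 0.14 ± 0.15. Pdk1, a pyruvate dehydrogenase kinase, had 0.34 ± 0.14 (adjusted p = 0.0756), and Slc16a3, the lactate exporter MCT4, had 0.68 ± 0.25 (adjusted p = 0.0566). Without the mIAPP library of set 7, Tpi1 (0.36 ± 0.12), Eno1 (0.40 ± 0.13) and Slc16a3 (0.82 ± 0.25) passed along with Gapdh, which took the count at 16.7 mM to 10 higher and 1 lower. Slc16a3 also passed in limma voom (adjusted p = 0.0241), in DESeq2 (0.0311) and without set 3 (0.03), and Pdk1 passed without set 3 (0.0446). With the mitochondrial level as a covariate, 4 were higher (Slc2a1, Hk2, Pfkp and Pfkfb3) and 0 were lower. Of all rows, 12.8% were called without the mIAPP library of set 7 and 4.94% with the covariate, in place of 20.5%.

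Ldhb (ENSMUSG00000030246, chr6:142490249-142507957), the lactate dehydrogenase subunit that favours making pyruvate from lactate, was the one glycolysis gene that fell. It stood at 9.45, 11.2 and 13.8 CPM in hIAPP islets at 16.7 mM, against 13.1, 16.4 and 22.9 CPM in mIAPP islets at 16.7 mM. At 11.1 mM it stood at 14.6, 21.7 and 27.6 CPM in hIAPP and 17.2, 21.2 and 23.1 CPM in mIAPP islets. The ranges overlapped at 16.7 mM, where 3 hIAPP libraries lay above the lowest mIAPP library although hIAPP was lower within 8 of 8 sets, and overlapped fully at 11.1 mM. Its log2 fold change was -0.53 ± 0.11 (adjusted p = 0.0016) at 16.7 mM and -0.02 ± 0.11 (adjusted p = 0.976) at 11.1 mM. Ldhb lies 186 kb from the replaced Iapp locus on chromosome 6, and the part of that neighbourhood in the difference was not tested. With the mitochondrial level as a covariate the value was -0.28 ± 0.11 (adjusted p = 0.189).

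**Figure D2:**
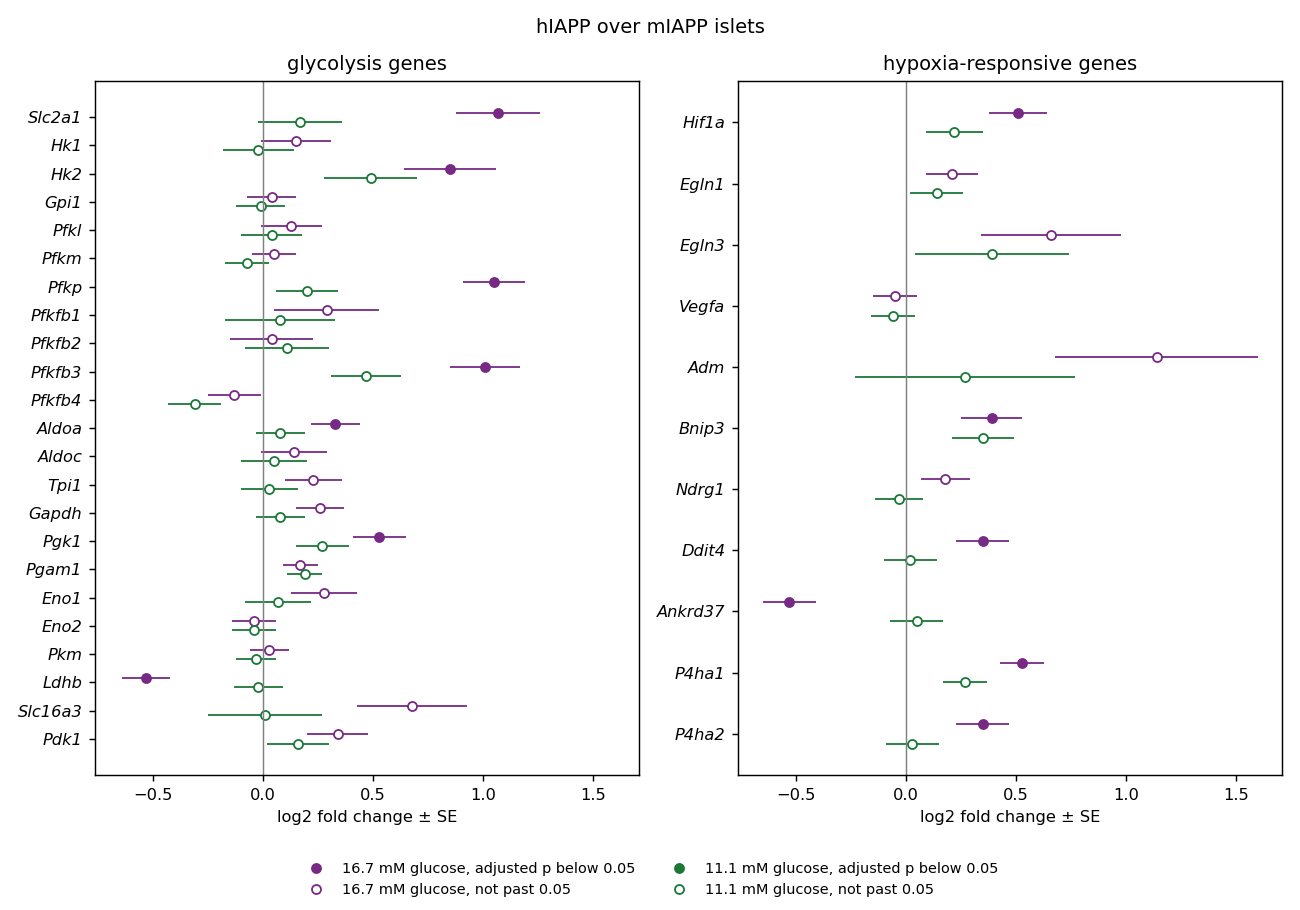
Log2 fold change (horizontal axis, ± SE) of hIAPP over mIAPP islets for the 23 glycolysis and 11 hypoxia-responsive genes at 16.7 mM (purple) and 11.1 mM glucose (green); filled points have an adjusted p below 0.05. At 16.7 mM 11 points are filled to the right of 0 and 2 (Ldhb and Ankrd37) to the left, and at 11.1 mM none is filled.

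Of the hypoxia-responsive genes at 16.7 mM glucose, Hif1a, its targets Bnip3 and Ddit4, and the collagen prolyl hydroxylases P4ha1 and P4ha2 exceeded their mIAPP levels 1.27- to 1.45-fold in hIAPP islets, Ankrd37 was 1.44-fold lower, and Vegfa did not pass. Thus 5 of 11 were higher and 1 was lower, against 9.27% and 11.2% of all rows tested. The median log2 fold change was 0.35, against -0.01 for all rows. At 11.1 mM 0 of 11 passed (2 at an unadjusted p below 0.05, and 0 by limma voom and DESeq2), and the median was 0.14. There 1121 of all 16428 rows had an unadjusted edgeR p below 0.05. Several of these calls lay near the threshold: without the replicate block 2 remained past it (P4ha1 higher and Ankrd37 lower), with the mitochondrial level as a covariate 1 did (P4ha1), and among the 18 libraries under 10% mitochondrial counts 2 did (P4ha1 and Bnip3). Of all rows tested, 7.92% were called without the block, 4.94% with the covariate and 6.61% under 10%, in place of 20.5%.

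Hif1a (ENSMUSG00000021109, chr12:73901375-73947530) encodes the oxygen-regulated alpha subunit, which is controlled mainly through the stability of the protein; the RNA measured here does not report on it. It stood at 53.5, 69.5 and 82.2 CPM in hIAPP islets at 16.7 mM, against 30.1, 48.0 and 59.8 CPM in mIAPP islets at 16.7 mM. In 11.1 mM glucose its levels were 22.4, 33.9 and 52.2 CPM in hIAPP and 19.7, 27.3 and 48.0 CPM in mIAPP islets. The genotypes overlapped, with the 30.1 CPM in set 7, and hIAPP was higher within 8 of 8 sets at 16.7 mM. The log2 fold change was 0.51 ± 0.13 (adjusted p = 0.00642) at 16.7 mM and 0.22 ± 0.13 (adjusted p = 0.745) at 11.1 mM. It was 0.26 ± 0.14 (adjusted p = 0.396) with the mitochondrial covariate and 0.50 ± 0.16 (adjusted p = 0.0536) without the replicate block.

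The oxygen sensors Egln1 and Egln3, both themselves induced by HIF as a brake, did not pass between genotypes. Their log2 fold changes were 0.21 ± 0.12 and 0.66 ± 0.32 (adjusted p of 0.21 and 0.133) at 16.7 mM. Egln3 was scarce, at 3.00 ± 1.22 CPM in hIAPP and 1.90 ± 0.643 CPM in mIAPP islets at 16.7 mM, against 54.7 ± 4.09 and 47.8 ± 5.85 CPM for Egln1 (SD, n = 8). Per kilobase Egln1 made up 93.3% ± 2.23 of the pair in hIAPP islets and 94.9% ± 1.7 in mIAPP islets at 16.7 mM.

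P4ha1 and P4ha2 encode the catalytic subunits of the enzyme that hydroxylates collagen, and both are known HIF targets. P4ha1 (ENSMUSG00000019916, chr10:59323296-59373304) stood at 86.6, 106 and 145 CPM in hIAPP islets at 16.7 mM, against 60, 75.4 and 94.4 CPM in mIAPP islets at 16.7 mM. The 11.1 mM cultures held 34.3, 44.9 and 61.4 CPM in hIAPP and 25.0, 36 and 51.1 CPM in mIAPP islets. The ranges at 16.7 mM overlapped at their ends, and hIAPP was higher within 8 of 8 sets. P4ha1 had the smallest p of the 11 genes, with a log2 fold change of 0.53 ± 0.10 (adjusted p = 0.000433) at 16.7 mM and 0.27 ± 0.10 (adjusted p = 0.722) at 11.1 mM, and passed at 16.7 mM under every alternative tried.

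P4ha2 (ENSMUSG00000018906, chr11:54100095-54131665) stood at 27.1, 36.1 and 45.1 CPM in hIAPP islets at 16.7 mM, against 22.6, 27.2 and 33.9 CPM in mIAPP islets at 16.7 mM. Cultures at 11.1 mM stood at 13.8, 18.7 and 26.6 CPM in hIAPP and 14.3, 19.1 and 21.4 CPM in mIAPP islets. At 16.7 mM 4 hIAPP libraries, those of sets 1, 2, 4 and 8, lay above all mIAPP libraries and the other 4 within their range. As a log2 fold change the genotype difference was 0.35 ± 0.12 (adjusted p = 0.0449) at 16.7 mM, and the call was lost without set 1, 2, 4, 6 or 8 (adjusted p up to 0.166). At 11.1 mM the log2 fold change was 0.03 ± 0.12 (adjusted p = 0.965).

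Bnip3 (ENSMUSG00000078566, chr7:138890836-138909519), which marks mitochondria for removal, stood at 84.1, 120 and 159 CPM in hIAPP islets at 16.7 mM, against 72.9, 90.4 and 116 CPM in mIAPP islets at 16.7 mM. At 11.1 mM it stood at 38.5, 57.6 and 85.8 CPM in hIAPP and 28.5, 42.0 and 69.7 CPM in mIAPP islets. The genotypes overlapped at both glucose levels. The log2 fold changes were of like size, 0.39 ± 0.14 (adjusted p = 0.04) at 16.7 mM and 0.35 ± 0.14 (adjusted p = 0.722) at 11.1 mM. At 16.7 mM the call was lost without set 1, 2, 4, 5, 6 or 8 (adjusted p up to 0.156) and without the replicate block (0.12).

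Ddit4 (ENSMUSG00000020108, chr10:59949669-59951834), a brake on the growth kinase mTOR, stood at 44.7, 51.7 and 80.5 CPM in hIAPP islets at 16.7 mM, against 36, 42.9 and 52.5 CPM in mIAPP islets at 16.7 mM. In 11.1 mM glucose its levels were 27.8, 38.4 and 60.5 CPM in hIAPP and 17.8, 36.8 and 62.7 CPM in mIAPP islets. The ranges overlapped, although hIAPP was higher within 8 of 8 sets at 16.7 mM. Its log2 fold change was 0.35 ± 0.12 (adjusted p = 0.0394) at 16.7 mM and 0.02 ± 0.12 (adjusted p = 0.982) at 11.1 mM. The call at 16.7 mM was lost without set 1, 2, 4, 6 or 8 (adjusted p up to 0.121) and without the replicate block (0.205).

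Ankrd37 (ENSMUSG00000050914, chr8:45996902-46005707), a small ankyrin-repeat protein gene known as a HIF target, went the other way. It stood at 5.52, 7.22 and 8.54 CPM in hIAPP islets at 16.7 mM, against 7.54, 9.69 and 18.4 CPM in mIAPP islets at 16.7 mM. The 11.1 mM cultures held 8.68, 11.1 and 16.3 CPM in hIAPP and 8.58, 11 and 12.8 CPM in mIAPP islets. The 18.4 CPM belonged to set 7, the next mIAPP library was at 10.6 CPM, and hIAPP was lower within 8 of 8 sets at 16.7 mM. The log2 fold change was -0.53 ± 0.12 (adjusted p = 0.00328) at 16.7 mM and 0.05 ± 0.12 (adjusted p = 0.942) at 11.1 mM. Without the mIAPP library of set 7 the gene still passed, and among the libraries under 10% mitochondrial counts it had -0.36 ± 0.10 (adjusted p = 0.0541).

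Vegfa (ENSMUSG00000023951, chr17:46016993-46032369), the vessel growth factor that beta cells make in quantity, stood at 328, 365 and 382 CPM in hIAPP islets at 16.7 mM, against 294, 395 and 435 CPM in mIAPP islets at 16.7 mM. Cultures at 11.1 mM stood at 293, 355 and 543 CPM in hIAPP and 255, 374 and 579 CPM in mIAPP islets. All 4 groups overlapped. For Vegfa the log2 fold change between genotypes was -0.05 ± 0.10 (adjusted p = 0.744) at 16.7 mM and -0.06 ± 0.10 (adjusted p = 0.902) at 11.1 mM. Ndrg1, a stress-induced gene, had 0.18 ± 0.11 between genotypes at 16.7 mM and did not pass. Adm, the vasodilator adrenomedullin, was close to the limit of detection at 0.97 ± 0.701 CPM in hIAPP and 0.391 ± 0.267 CPM in mIAPP islets at 16.7 mM (SD, n = 8), and its log2 fold change of 1.14 ± 0.46 did not pass (adjusted p = 0.077). Adm passed in limma voom (adjusted p = 0.012) and without set 3 (adjusted p = 0.0284), and Egln3 passed in limma voom (adjusted p = 0.0286).

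**Figure D3:**
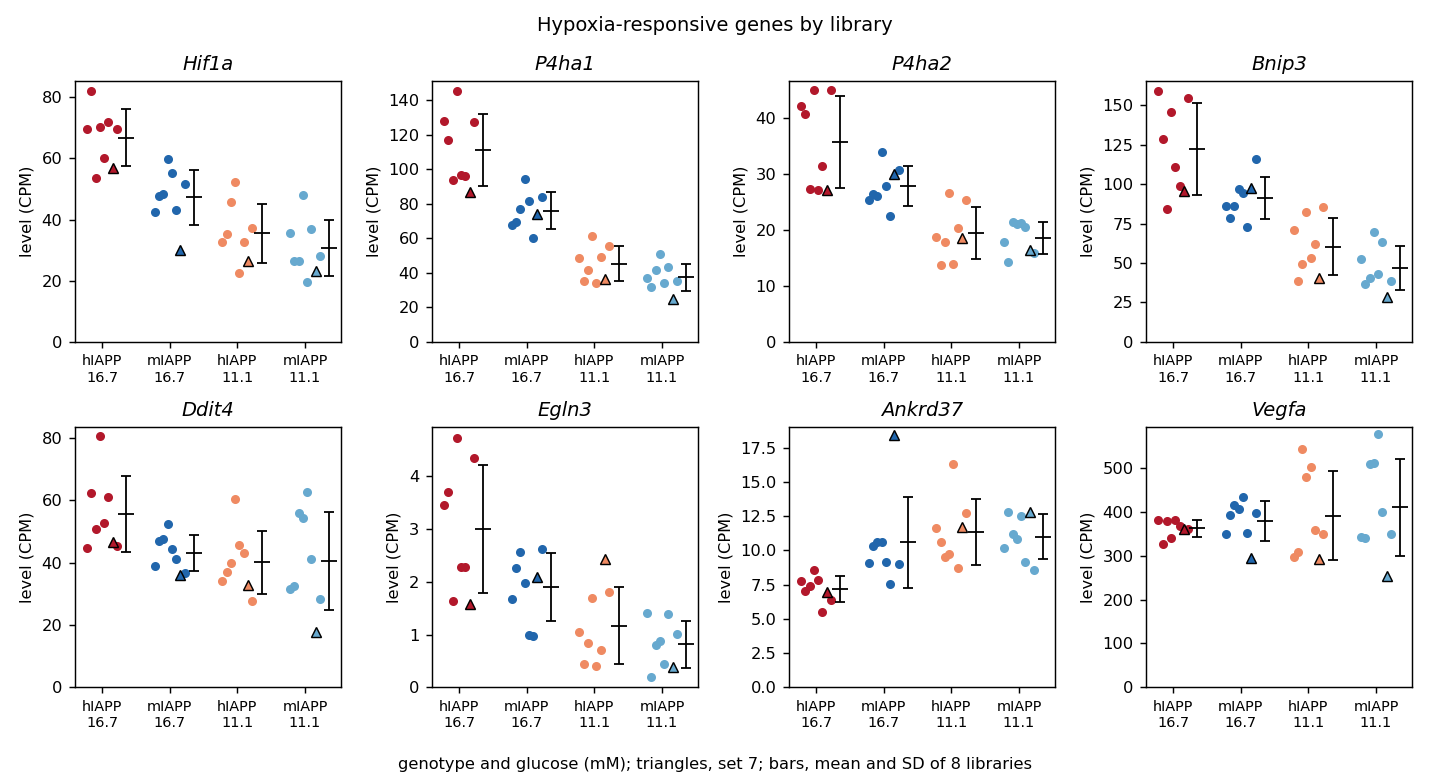
Levels of 8 hypoxia-responsive genes in CPM (linear vertical axes from 0) in each of the 32 libraries, by genotype and glucose; triangles are set 7 and bars give the mean and SD of 8 libraries. P4ha1 spans 86.6 to 145 CPM in hIAPP and 60 to 94.4 CPM in mIAPP islets at 16.7 mM, while the 4 groups of Vegfa overlap.

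The libraries of hIAPP islets at 16.7 mM were not alike. For 16 of the 34 genes (11 glycolysis and 5 hypoxia-responsive), the 4 highest of the 8 libraries were those of sets 1, 2, 4 and 8, as they were for 4.69% of all rows tested. Slc2a1 stood at 59.4, 53.1, 62.2 and 55.5 CPM in these sets, and at 33.9, 36.1, 33.9 and 30.1 CPM in sets 3, 5, 6 and 7. Pfkp likewise stood at 103, 90.4, 100 and 112 CPM in sets 1, 2, 4 and 8, and at 50.1, 60.4, 61.0 and 57.3 CPM in sets 3, 5, 6 and 7. Pgk1, Pfkfb3, Bnip3, P4ha1 and P4ha2 shared this order, as did Star, the gene that the series title names. Hif1a and Vegfa did not. These 4 sets were noticed in the values, so the counts are a description with no test. In the other 3 groups the most frequent set of 4 covered 7 to 9 of the 34 genes. At 16.7 mM it covered 7 genes in mIAPP islets, against 6.23% of all rows. At 11.1 mM it covered 7 in hIAPP islets, against 0.785%, and 9 in mIAPP islets, against 9.44%.

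HIF bound to Arnt recognises the letters ACGTG or GCGTG, and the promoters of the 34 genes were searched for them on both strands, whether or not the gene moved. Of the 34 genes, 33 had a promoter in the RefSeq table for GRCm38.p6 (Ndrg1 did not), as windows of 300 bases around the start of transcription. A match was found in at least 1 promoter of 20 of 23 glycolysis genes and 10 of 10 hypoxia-responsive genes, against 46.7% of all 27025 genes and 43.8% of all 32851 promoters in the table. Counted by promoter, 29 of 40 glycolysis and 10 of 11 hypoxia-responsive windows held one. The hypoxia-responsive genes were chosen as HIF pathway genes, and some glycolysis genes are known HIF targets, so these shares are no independent result. The promoters of Pgk1, Slc2a1, P4ha1 and Bnip3 are shown as 4 of the 9 genes that were higher both with hIAPP at 16.7 mM and with glucose in both genotypes, picked as examples with values known, and that of Ankrd37 because it fell; capitals mark ACGTG and GCGTG and their reverse complements CACGT and CACGC, which can overlap.
Pgk1, chrX:106186850-106187149, plus strand: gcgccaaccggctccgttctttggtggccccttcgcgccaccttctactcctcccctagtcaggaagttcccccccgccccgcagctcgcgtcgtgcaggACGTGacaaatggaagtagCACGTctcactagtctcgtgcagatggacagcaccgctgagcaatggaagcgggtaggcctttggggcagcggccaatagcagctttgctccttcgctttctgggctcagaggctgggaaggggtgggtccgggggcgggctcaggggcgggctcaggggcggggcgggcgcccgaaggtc
Slc2a1, chr4:119108495-119108794, plus strand: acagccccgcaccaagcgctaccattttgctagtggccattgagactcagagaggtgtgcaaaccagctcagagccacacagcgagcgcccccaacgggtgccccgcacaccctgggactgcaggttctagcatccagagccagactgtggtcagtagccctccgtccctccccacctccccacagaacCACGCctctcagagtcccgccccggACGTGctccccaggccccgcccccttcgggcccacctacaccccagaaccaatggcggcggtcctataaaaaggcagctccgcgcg
P4ha1, chr10:59323046-59323345, plus strand: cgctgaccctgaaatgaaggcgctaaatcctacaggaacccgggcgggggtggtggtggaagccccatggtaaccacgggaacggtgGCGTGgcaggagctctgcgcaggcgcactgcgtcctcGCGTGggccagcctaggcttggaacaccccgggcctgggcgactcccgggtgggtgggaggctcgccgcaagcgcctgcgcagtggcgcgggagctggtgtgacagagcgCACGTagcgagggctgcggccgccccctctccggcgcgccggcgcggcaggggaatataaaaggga
Bnip3, chr7:138909457-138909756, minus strand: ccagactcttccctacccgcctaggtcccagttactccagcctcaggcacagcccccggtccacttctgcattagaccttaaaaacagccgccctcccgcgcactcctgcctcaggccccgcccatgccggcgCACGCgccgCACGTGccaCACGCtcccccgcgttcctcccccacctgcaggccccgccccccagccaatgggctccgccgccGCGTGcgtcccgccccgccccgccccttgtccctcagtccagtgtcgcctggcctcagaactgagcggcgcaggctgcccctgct
Ankrd37, chr8:45999801-46000100, minus strand: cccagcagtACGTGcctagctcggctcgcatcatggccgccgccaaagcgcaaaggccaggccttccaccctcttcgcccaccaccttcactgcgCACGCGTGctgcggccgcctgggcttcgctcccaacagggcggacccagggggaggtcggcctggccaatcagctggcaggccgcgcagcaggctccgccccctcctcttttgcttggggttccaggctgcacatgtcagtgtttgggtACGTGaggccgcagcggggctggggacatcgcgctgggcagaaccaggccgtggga
The windows held 2 matches in Pgk1, 2 in Slc2a1, 3 in P4ha1, 5 in Bnip3 and 4 in Ankrd37, the gene that fell included. Bnip3 also held the palindrome CACGTG, read by other factors that respond to glucose, found in any promoter of 3 of 23 glycolysis and 2 of 10 hypoxia-responsive genes, against 8.09% of all genes in the table. Vegfa had 2 windows, of which 1 held 2 matches and the other none. A match describes the letters and is no measurement of binding.

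More of these genes were called with glucose than between genotypes, as was true of all rows tested. In hIAPP islets at 16.7 mM, against hIAPP islets at 11.1 mM, 13 of 23 glycolysis genes were higher and 4 were lower, where 65.5% of all rows were called, 32.2% higher and 33.3% lower. In mIAPP islets 10 were higher and 5 were lower, against 47.5% of all rows, 24.9% higher and 22.7% lower. The median log2 fold change was 0.35 in hIAPP and 0.26 in mIAPP islets, against -0.02 and -0.03 for all rows. Genes called higher in both genotypes were Slc2a1, Pfkp, Pfkfb3, Aldoa, Tpi1, Gapdh, Pgk1, Pgam1, Eno1 and Pdk1. Aldoc, Eno2, Pfkfb4 and Ldhb were called lower in both. Among libraries under 10% mitochondrial counts, 5 of the 10 calls in mIAPP islets were lost, with values of 0.15 ± 0.22 for Slc2a1, 0.16 ± 0.14 for Aldoa, 0.24 ± 0.17 for Tpi1, 0.30 ± 0.19 for Eno1 and 0.39 ± 0.15 for Gapdh (adjusted p of 0.0774 to 0.63). Of all rows, 30.2% were called in mIAPP islets under 10%, in place of 47.5%. At 11.1 mM that setting kept 2 hIAPP and 3 mIAPP libraries. With upper-quartile scaling, under which all rows were called 4145 higher and 6636 lower in hIAPP islets (5294 and 5474 with TMM) and 3191 higher and 4871 lower in mIAPP islets (4083 and 3722 with TMM), the glycolysis genes counted 11 higher and 5 lower in hIAPP and 10 and 5 in mIAPP islets. That scaling moved the median of all rows to -0.16 in hIAPP and -0.13 in mIAPP islets. The comparisons across glucose also set a median mitochondrial share of 3.5% at 16.7 mM against 18.1% at 11.1 mM in hIAPP islets, and of 7.29% against 20.4% in mIAPP islets. Marker sums moved with glucose too. Macrophage genes summed to 83.3 to 164 CPM at 16.7 mM and 221 to 373 CPM at 11.1 mM in hIAPP islets, and to medians of 129 and 245 CPM in mIAPP islets. Ductal genes had medians of 922 CPM at 16.7 mM and 367 CPM at 11.1 mM in hIAPP islets, and of 629 and 390 CPM in mIAPP islets. Endothelial genes had medians of 49.7 CPM at 16.7 mM and 116 CPM at 11.1 mM in hIAPP islets, and of 81.7 and 114 CPM in mIAPP islets. Their part in the glucose differences was not tested.

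Pgk1 had the largest glucose change of the 23 genes in both genotypes. It was 3.17-fold higher in hIAPP islets (372 ± 63.6 CPM at 16.7 mM and 120 ± 34.7 CPM at 11.1 mM; SD, n = 8) and 2.65-fold higher in mIAPP islets (256 ± 36.4 and 98.2 ± 22.1 CPM), with no overlap of the glucose levels in either. Pfkp was 2.78-fold higher in hIAPP islets (log2 1.47 ± 0.14, edgeR adjusted p = 3.33e-09). In mIAPP islets Pfkp was 1.54-fold higher (0.63 ± 0.14, adjusted p = 0.000838). Slc2a1 was 2.92-fold higher in hIAPP (1.55 ± 0.19) and 1.56-fold higher in mIAPP islets (0.64 ± 0.19). In hIAPP islets 8 glycolysis genes did not overlap between glucose levels in the upward direction, against 14.3% of all rows, and 1 in the downward direction, against 8.38%. In mIAPP islets 2 did not overlap upward (Pgk1 and Pgam1), against 2.64%, and 0 downward, against 1.41%.

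In 3 families, isozymes of the same step went opposite ways with glucose. Other families did not: Pfkp and Pfkl were both called higher in hIAPP islets, and Hk1 and Hk2 had no opposed calls. The general enolase Eno1 was higher by 0.72 ± 0.15 (log2) in hIAPP and 0.52 ± 0.15 in mIAPP islets, while the neuronal and endocrine enolase Eno2 was lower, at -0.48 ± 0.10 in both genotypes. Per kilobase, Eno2 thus held 8.18% ± 1.73 of the enolase level at 16.7 mM and 17.0% ± 3.19 at 11.1 mM in hIAPP islets, and 9.89% ± 1.48 and 18.1% ± 3.02 in mIAPP islets (SD, n = 8). Aldoa was higher by 0.67 ± 0.11 in hIAPP and 0.42 ± 0.11 in mIAPP islets, and Aldoc lower, at -0.45 ± 0.15 and -0.54 ± 0.15. Pfkfb3 was higher by 1.19 ± 0.16 in hIAPP and 0.65 ± 0.16 in mIAPP islets, and Pfkfb4 lower, at -0.40 ± 0.12 and -0.58 ± 0.12. With the mitochondrial covariate Eno2 had -0.03 ± 0.11 in hIAPP islets, and Aldoc (-0.43 ± 0.24) and Pfkfb4 (-0.30 ± 0.20) did not pass there. Among libraries under 10% these 3 did not pass in hIAPP islets either (-0.22 ± 0.14, -0.38 ± 0.19 and -0.33 ± 0.24 for Eno2, Aldoc and Pfkfb4), nor did Pfkfb4 in mIAPP islets (-0.57 ± 0.20, adjusted p = 0.0541).

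Ldhb fell with glucose in both genotypes, with log2 fold changes of -0.85 ± 0.11 in hIAPP islets, where the glucose levels did not overlap, and -0.34 ± 0.11 in mIAPP islets; with the mitochondrial covariate the value in mIAPP islets was -0.19 ± 0.10 (adjusted p = 0.127). Slc16a3 was higher in hIAPP islets (1.15 ± 0.26, adjusted p = 0.000387) and had 0.48 ± 0.26 in mIAPP islets (adjusted p = 0.133); it did not pass in hIAPP islets under 10% (adjusted p = 0.0597) and passed in mIAPP islets without set 6 (0.67 ± 0.27, adjusted p = 0.0475). Pdk1 was 2.02-fold higher in hIAPP and 1.78-fold higher in mIAPP islets. Calls on the edge were Gpi1 and Pfkl, higher in hIAPP islets (adjusted p of 0.0449 and 0.0262), and Hk1, lower in mIAPP islets (0.0344). Gpi1 was lost without set 1, 2, 3, 4, 5 or 8, Pfkl without set 1 or 2, and Hk1 without set 1, 2, 3, 5 or 6. All 3 were lost with the mitochondrial covariate (0.43 ± 0.16 for Gpi1, 0.41 ± 0.22 for Pfkl and -0.40 ± 0.18 for Hk1) and under 10%. In hIAPP islets Hk1 passed with upper-quartile scaling (-0.39 ± 0.17, adjusted p = 0.0434) and without set 8 (-0.41 ± 0.16, adjusted p = 0.0273). Hk2, Pfkm, Pfkfb1, Pfkfb2 and Pkm passed in neither genotype; Pfkfb2 passed in hIAPP islets without set 7 (-0.38 ± 0.15, adjusted p = 0.0364) with the mitochondrial covariate (-0.93 ± 0.27) and under 10% (-0.89 ± 0.21). Hk2 passed in hIAPP islets with the covariate (0.88 ± 0.30, adjusted p = 0.0375), and Pfkm without set 4 (0.27 ± 0.11, adjusted p = 0.0267).

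**Figure D4:**
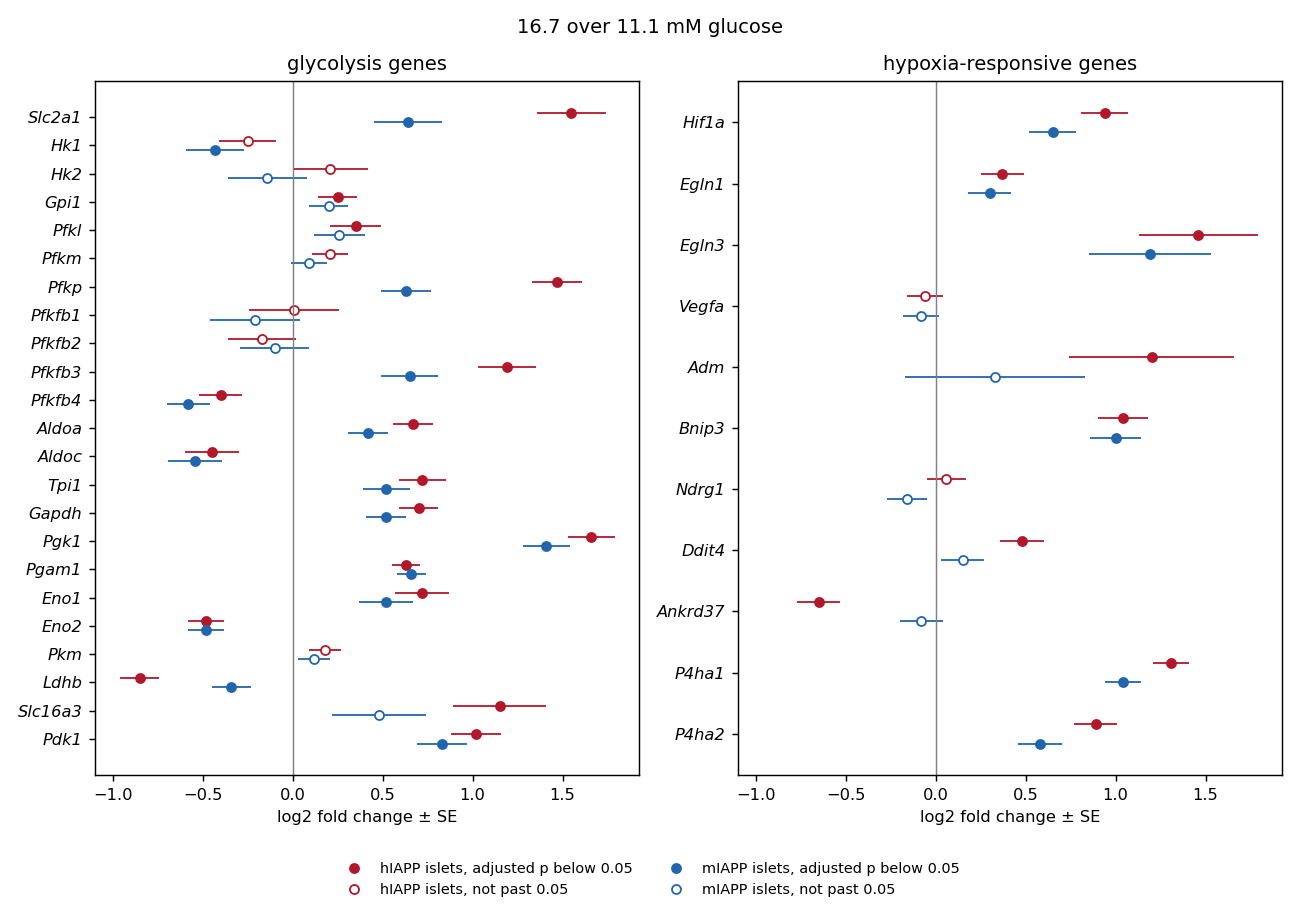
Log2 fold change (horizontal axis, ± SE) of 16.7 over 11.1 mM glucose in hIAPP (red) and mIAPP islets (blue) for the 23 glycolysis and 11 hypoxia-responsive genes; filled points have an adjusted p below 0.05. Pgk1 lies furthest to the right among the glycolysis genes, at 1.66 in hIAPP and 1.41 in mIAPP islets, and Aldoc, Eno2, Pfkfb4 and Ldhb lie left of 0 in both.

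Among the hypoxia-responsive genes, 8 of 11 were higher and 1 was lower with glucose in hIAPP islets, and 6 were higher and 0 lower in mIAPP islets, against the same shares of all rows. The medians were 0.89 in hIAPP and 0.33 in mIAPP islets. Hif1a, Egln1, Egln3, Bnip3, P4ha1 and P4ha2 were called in both genotypes. P4ha1 was 2.47-fold higher in hIAPP islets (median 106 CPM at 16.7 mM and 44.9 CPM at 11.1 mM) and 2.06-fold higher in mIAPP islets (median 75.4 CPM at 16.7 mM and 36 CPM at 11.1 mM), with no overlap in either. Bnip3 was 2.06-fold higher in hIAPP and 1.99-fold higher in mIAPP islets. Hif1a was 1.92-fold higher in hIAPP and 1.57-fold higher in mIAPP islets, and Egln3 was 2.76-fold higher in hIAPP and 2.29-fold higher in mIAPP islets. Some of these calls were lost: Hif1a in hIAPP islets under 10% mitochondrial counts (0.55 ± 0.24, adjusted p = 0.122), P4ha2 in mIAPP islets under 10% (0.37 ± 0.16, adjusted p = 0.101) and Egln3 in hIAPP islets with the mitochondrial covariate (1.15 ± 0.51, adjusted p = 0.111). With upper-quartile scaling the counts were 7 higher and 2 lower in hIAPP and 5 higher and 1 lower in mIAPP islets.

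Egln1 had the smallest change of the 6, at 0.37 ± 0.12 (log2) in hIAPP and 0.30 ± 0.12 in mIAPP islets (adjusted p of 0.00791 and 0.038). Its call in mIAPP islets was lost without set 1, 2, 7 or 8 (adjusted p up to 0.146) and also when the set 7 library of mIAPP islets at 16.7 mM was dropped (0.0514). Under the mitochondrial covariate Egln1 had -0.03 ± 0.16 in hIAPP and 0.16 ± 0.11 in mIAPP islets, and under 10% mitochondrial counts 0.24 ± 0.12 in hIAPP and -0.02 ± 0.10 in mIAPP islets, none of which passed. Ddit4 and Adm were called higher in hIAPP islets, at 0.48 ± 0.12 and 1.20 ± 0.46, and Adm was lost without set 1 or 6 and under 10% (1.15 ± 0.78). Ddit4 was lost with the covariate (0.22 ± 0.18, adjusted p = 0.432) and under 10% (0.34 ± 0.16, adjusted p = 0.143). Ankrd37 was lower in hIAPP islets (-0.65 ± 0.12, adjusted p = 4.57e-05), with no overlap of the glucose levels, and had -0.08 ± 0.12 in mIAPP islets; with the mitochondrial covariate the value in hIAPP islets was -0.25 ± 0.17 (adjusted p = 0.309), and under 10% it was -0.26 ± 0.14 (adjusted p = 0.208). Vegfa had -0.06 ± 0.10 in hIAPP and -0.08 ± 0.10 in mIAPP islets and did not pass. With upper-quartile scaling it passed in hIAPP islets (-0.21 ± 0.09, adjusted p = 0.0445), as it did with the mitochondrial covariate (-0.41 ± 0.14, adjusted p = 0.0278). Among libraries under 10% mitochondrial counts Vegfa was lower with glucose in both, at -0.46 ± 0.12 in hIAPP and -0.35 ± 0.10 in mIAPP islets (adjusted p of 0.0188 and 0.0269). At 11.1 mM these values rest on 2 hIAPP libraries, with Vegfa at 543 and 479 CPM, and on 3 mIAPP libraries. Ndrg1 had 0.06 ± 0.11 in hIAPP and -0.16 ± 0.11 in mIAPP islets and did not pass. In mIAPP islets it was lower with upper-quartile scaling (-0.26 ± 0.10), a minimum mean of 5 CPM (-0.23 ± 0.10), the covariate (-0.35 ± 0.08, adjusted p = 0.00191) and under 10% (-0.47 ± 0.09, adjusted p = 0.00465). With the covariate Ndrg1 was also called lower in hIAPP islets. Under 10%, 4 hypoxia-responsive genes were called higher and 1 (Vegfa, newly called) lower in hIAPP islets, in place of 8 higher and 1 (Ankrd37) lower. Of all rows, 22.6% in place of 65.5% were called there.

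The interaction asks whether the genotype effect at 16.7 mM differed from that at 11.1 mM. Pfkp alone of the 34 genes passed, at 0.85 ± 0.20 (log2; adjusted p = 0.0163), where 3.12% of all rows did, 2.17% with a higher and 0.95% with a lower value. Slc2a1 had 0.90 ± 0.26 (adjusted p = 0.0595), Ankrd37 -0.58 ± 0.17 (0.0597), Ldhb -0.51 ± 0.16 (0.0716) and Pfkfb3 0.54 ± 0.23 (0.2). Pfkp did not pass without the replicate block (adjusted p = 0.104) or without set 1, 2, 6 or 8 (adjusted p of 0.0506 to 0.0895), nor among libraries under 10% mitochondrial counts (1.02 ± 0.28, adjusted p = 0.199). Under 10%, 2 hIAPP and 3 mIAPP libraries remained at 11.1 mM. Slc2a1 passed in limma voom (adjusted p = 0.0242), in DESeq2 (0.0182), when the set 7 library of mIAPP islets at 16.7 mM was dropped (0.0326) and without set 7 as a whole (0.00403). Ldhb passed in DESeq2 (0.0409) and without set 3 (0.0395), and Ankrd37 in DESeq2 (0.0378). Of the 11 hypoxia-responsive genes 0 passed in edgeR, with 1 at an unadjusted p below 0.05, as had 3055 of all 16428 rows. The 2 genotype comparisons and the 2 glucose comparisons share groups, so their values stand side by side and are not independent.

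Other genes of the same pathways were read from lists that hold none of the 34 genes. At 16.7 mM, 8 of 31 other glycolysis genes tested were higher and 4 were lower in hIAPP islets, with a median log2 fold change of 0.10, where all rows had 9.27% higher, 11.2% lower and a median of -0.01. Those with the smallest p were the pyruvate dehydrogenase kinase Pdk3 (0.71 ± 0.10, adjusted p = 3.14e-05), the gluconeogenic Fbp1 (0.89 ± 0.18), the hexokinase-like Hkdc1 (2.13 ± 0.43; 2.96 CPM in hIAPP and 0.667 CPM in mIAPP islets), the phosphoglucomutase Pgm1 (0.36 ± 0.09) and the glycerol phosphate dehydrogenase Gpd2 (0.52 ± 0.13), all higher. The muscle-type enolase Eno3 was lower, at -1.16 ± 0.25 (20.1 CPM in hIAPP and 55.1 CPM in mIAPP islets). Of 34 other HIF pathway genes tested, 9 were higher and 3 were lower, with a median of 0.24, beside the same shares of all rows. Among them the repressor Bhlhe40 (1.11 ± 0.17), the haem oxygenase Hmox1 (0.86 ± 0.17), the protein oxidase Ero1l (0.54 ± 0.11) and the adenylate kinase Ak4 (1.24 ± 0.29) were higher. Cited2, which limits HIF activity by competing for its coactivator, was lower, at -0.67 ± 0.11.

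At 11.1 mM 0 of the 31 and 0 of the 34 other genes passed between genotypes, with 4 of each at an unadjusted p below 0.05. Of all 16428 rows, 1121 had such an unadjusted p. With glucose, 14 of 31 other glycolysis genes were higher and 7 lower in hIAPP islets, and 11 higher and 8 lower in mIAPP islets, beside 65.5% of all rows called in hIAPP and 47.5% in mIAPP islets. The catalytic glucose phosphatase subunit G6pc2 was 2.27-fold higher in hIAPP and 2.41-fold higher in mIAPP islets, and Eno3 was lower in both, at -2.43 ± 0.26 and -1.44 ± 0.25 (log2). Of 34 other HIF pathway genes, 18 were higher and 5 lower in hIAPP, and 12 higher and 2 lower in mIAPP islets. Taken without direction, both lists' calls in hIAPP islets lay close to that share of all rows. By direction, all rows had 32.2% higher and 33.3% lower in hIAPP islets, and 24.9% higher and 22.7% lower in mIAPP islets. The median log2 fold changes in hIAPP islets were 0.25 for other glycolysis and 0.30 for other HIF pathway genes, against -0.02. In mIAPP islets they were 0.18 and 0.22, against -0.03 for all rows. Arnt, the HIF partner, was 2.15-fold higher in hIAPP and 1.77-fold higher in mIAPP islets, the secreted stanniocalcin Stc2 was 3.01-fold higher in hIAPP and 2.95-fold higher in mIAPP islets, and Ak4 was 4.86-fold higher in hIAPP and 3.32-fold higher in mIAPP islets. In the interaction 0 of 31 other glycolysis genes passed (8 at an unadjusted p below 0.05), while Bhlhe40 (1.22 ± 0.24, adjusted p = 0.00362) and Cited2 (-0.65 ± 0.16, adjusted p = 0.0225) passed. Of all 16428 rows, 3055 had an unadjusted p below 0.05 in the interaction.

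The genotype effect at 16.7 mM was recomputed with fewer libraries and with the mitochondrial level. Slc2a1, Hk2, Pfkp and Pfkfb3 stayed past the threshold in each, with Pfkp at 1.15 ± 0.13 (log2) without the mIAPP library of set 7, 1.21 ± 0.15 in the 18 libraries under 10% mitochondrial counts, and 1.20 ± 0.17 with the covariate. P4ha1 had 0.59 ± 0.10, 0.57 ± 0.11 and 0.43 ± 0.12 and passed in each. Pgk1 passed in the first and the second (0.57 ± 0.13) but not with the covariate (0.43 ± 0.15, adjusted p = 0.112).

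**Figure D5:**
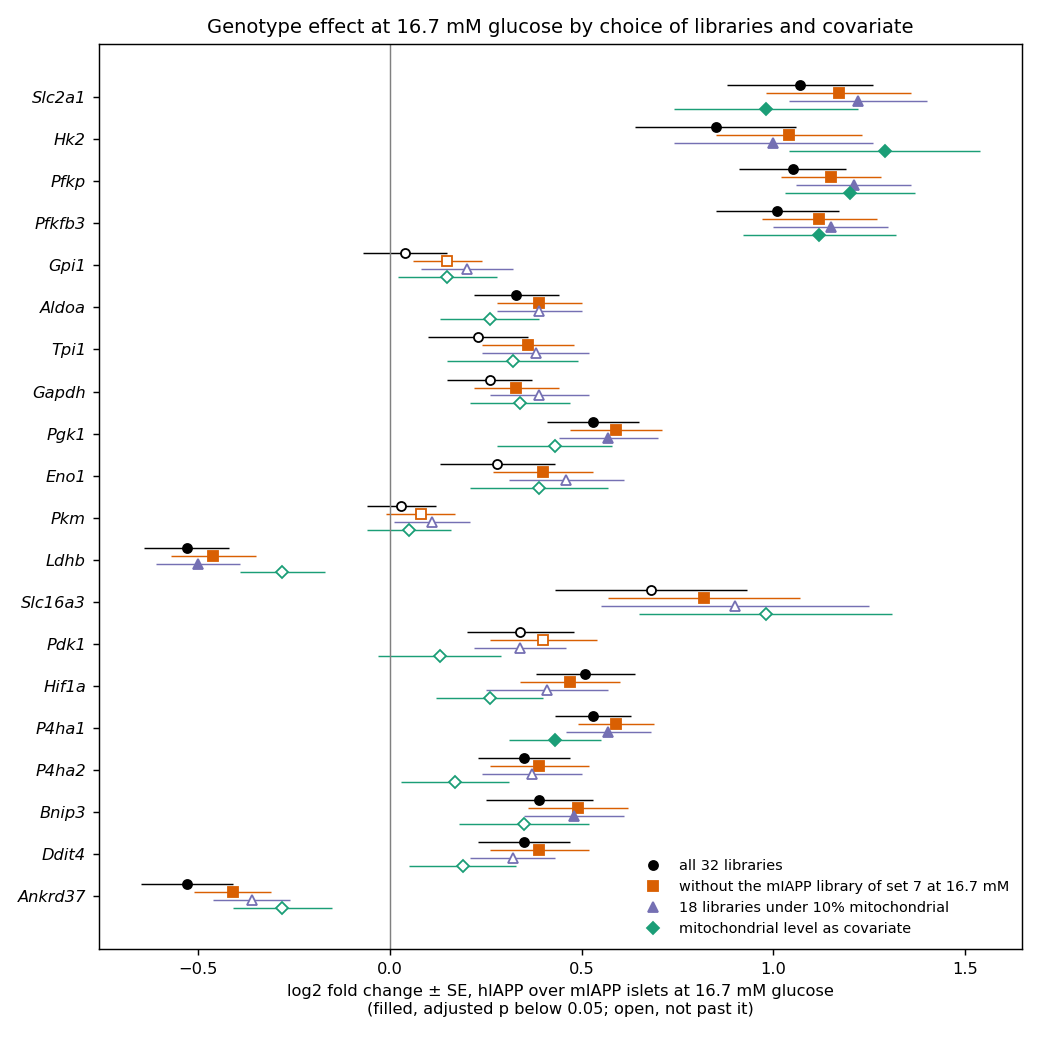
Log2 fold change (horizontal axis, ± SE) of hIAPP over mIAPP islets at 16.7 mM for 20 of the genes, with all 32 libraries (circles), without the mIAPP library of set 7 (squares), in the 18 libraries under 10% mitochondrial counts (triangles) and with the mitochondrial level as a covariate (diamonds); filled points have an adjusted p below 0.05. Slc2a1, Hk2, Pfkp, Pfkfb3 and P4ha1 are filled in all 4, and Ldhb and Ankrd37 move towards 0 with the covariate, to -0.28 in both.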

How the data were processed

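RNA of 32 libraries, 8 sets with each of the 4 groups, was read from 1 table. The authors deposited estimated counts per gene, made with bcl2fastq 1.8.4 and kallisto 0.45.0 on GRCm38, per the submitters' processing notes; how transcripts were summed to genes is not given in the sources used here. The estimated counts were used as deposited, with no rounding step here. Of 36595 rows, 16428 passed edgeR's filterByExpr. Levels are TMM-scaled CPM, and per-kilobase levels divide by the longest annotated transcript. The main test was edgeR 4.0.16 (R 4.3.3) with a robust quasi-likelihood fit of group and set, with 21 residual degrees of freedom and Benjamini-Hochberg adjustment over all rows tested. The sets are a block because the labels place all 4 groups in each set; the mean correlation of same-set deviations between groups was 0.17 to 0.36, with a lowest single value of -0.23.

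Alternatives were limma 3.58.1 (voom), DESeq2 1.42.0, no replicate block, upper-quartile scaling, no filter, a minimum mean of 5 CPM, a mitochondrial covariate, libraries under 10% mitochondrial counts, no mIAPP library of set 7 at 16.7 mM, and each set left out. The fit was tested on simulated data. Lowest, median and highest libraries are given for genes called at 16.7 mM or in the interaction and for Hif1a, Vegfa, Slc2a1 and Gapdh; up to 6 other genes per pathway and comparison with the smallest p are named, and 1 such gene is not reported here. Members and lists were chosen with earlier results of these data known.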

Additional observations from a re-analysis of the deposited data

Results flagged for a closer look

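Of 144 groups of 8 libraries examined, 17 held a library whose distance to its nearest neighbour exceeded Dixon's 95% limit. Chance gives about 1 in 20 for independent groups of normally spread values. These groups share the same libraries, so the 17 cannot be set against that rate. Of the 17, 14 were the mIAPP library of set 7 at 16.7 mM. It was the highest of its group for Hk2 (3.35 CPM, next 1.86), Pfkfb3 (17.7, next 11.7), Slc16a3 (17.4, next 9.78), Ankrd37 (18.4, next 10.6) and Eno2 (94.1, next 59.8). It was also the highest for Tpi1 (327 CPM, next 221), Gpi1 (370, next 234), Eno1 (672, next 386), Pkm (1127, next 877) and Gapdh (1450, next 1054). It was the lowest for Pfkfb2 (30.8 CPM, next 85.4), Pfkm (29.7, next 52.2) and Ndrg1 (54.2, next 79.6), and its mitochondrial share was 37%, next 13.4%.

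Other single libraries apart from their group were the hIAPP library of set 5 at 16.7 mM for Pfkfb2 (119 CPM, next 93.2), the hIAPP library of set 7 at 11.1 mM for Pfkfb1 (0.197 CPM, next 0.923) and that of set 4 at 11.1 mM for Adm (1.37 CPM, next 0.591). The genotype effect on Pfkp differed between the glucose levels by 0.85 ± 0.20 on the log2 scale (edgeR, adjusted p = 0.0163).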

How the results depend on the processing

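Of the 61 calls on the 34 genes, limma voom and DESeq2 kept 61 each, upper-quartile scaling 55, no low-count filter 57, a minimum mean of 5 CPM 53 (4 lost, the rest in genes it removed), the mitochondrial covariate 41 and the libraries under 10% mitochondrial counts 35; leaving out 1 set kept 51 to 60. Without the replicate block, which ignores the pairing by set, 51 were kept, 2 of 11 hypoxia-responsive genes in place of 6 were called between genotypes at 16.7 mM, 0 glycolysis genes in place of 1 passed the interaction, and 1301 of all tested genes in place of 3371 were called between genotypes at 16.7 mM. Between genotypes at 16.7 mM, 7 glycolysis genes were called, against 4 with the mitochondrial covariate, 11 without the mIAPP library of set 7 and 6 to 11 with 1 set left out. The 6 hypoxia-responsive calls became 3 with no low-count filter, 1 with the covariate, 2 under 10% mitochondrial counts and 3 to 7 with 1 set left out. Of all rows tested, 20.5% were called in this comparison. The share was 8.81% with no low-count filter, 4.94% with the covariate and 6.61% under 10%. It was 12.8% without the mIAPP library of set 7 and 9.89 to 23.2% with 1 set left out. Under 10% mitochondrial counts, which left 2 hIAPP and 3 mIAPP libraries at 11.1 mM, glucose calls were 8 in place of 15 (glycolysis, mIAPP). They were 5 in place of 9 (hypoxia-responsive, hIAPP), with Vegfa newly called among the 5. Of all rows, 30.2% in place of 47.5% were called in mIAPP islets, and 22.6% in place of 65.5% in hIAPP islets. In the interaction, the glycolysis count of 1 was 2 in limma voom, 3 in DESeq2, 0 under 10%, 2 without the set 7 library and 0 to 2 with 1 set left out. The hypoxia-responsive count of 0 was 1 in DESeq2. The share of all rows called in the interaction was 3.12% in the main fit, 5.65% in limma voom and 5.84% in DESeq2. It was 0.0408% under 10% and 2.74% without the set 7 library. Glucose values changed sign in hIAPP islets with the covariate for Egln1 (-0.03) and Ndrg1 (-0.44, called lower), and in mIAPP islets under 10% for Egln1 (-0.02). The cause was not tested. Adm, Pfkfb1, Egln3 and Hk2 had the lowest levels of the 34 genes, and the effect of depth on them was not tested.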

Other observations

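Gm5069, a near-identical copy of Gapdh named here after its values were seen, moved opposite to Gapdh. It averaged 4.92 CPM in hIAPP and 9.6 CPM in mIAPP islets at 16.7 mM, a log2 fold change of -0.95 ± 0.15 (edgeR, adjusted p = 6.08e-05), where Gapdh had 0.26 ± 0.11. Its log2 fold change with glucose was -1.51 in hIAPP and -0.70 in mIAPP islets; the interaction was -0.81 (adjusted p = 0.0278). Whether its reads come from the copy or from Gapdh was not tested.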
